A study of Mus musculus with 12 samples.

Results

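The tumor necrosis factor (TNF) receptor superfamily includes receptors that can kill a cell and receptors that hold the same ligands without killing. The transcripts of 10 of them were compared in mouse fibroblasts that were made senescent with and without the clock gene Bmal1. They were 3 death receptors (Fas, Tnfrsf10b and Tnfrsf1a), the 3 receptors of 1 gene cluster (Tnfrsf22, Tnfrsf23 and Tnfrsf26), the secreted decoy Tnfrsf11b, and 3 receptors that signal through TRAF adaptors (Tnfrsf1b, Tnfrsf12a and Eda2r). The genes were taken by symbol from the count tables, which list 49315 gene identifiers, and all 10 were among the 17416 genes with enough counts to test.

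Death receptors carry a cytoplasmic death domain. When a ligand such as FASL, TRAIL or TNF binds, the domain recruits FADD or TRADD, which bring in caspase-8 and start apoptosis, while cFLIP (Cflar) competes with caspase-8 in the same complex. Decoy receptors bind ligand without a working death domain, and the remaining members bind TRAF proteins and feed NF-kappaB signaling. Senescent cells have stopped dividing, secrete cytokines and are known for resistance to apoptosis, which places this family close to the question of the series, how BMAL1 shapes the senescence program.

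RNA-seq was available from 12 libraries of primary mouse adult fibroblasts (MAFs) in 4 groups of 3. WT control (WTC) and WT senescent (WTS) cells came from ears of C57BL/6 mice, and KO control (KOC) and KO senescent (KOS) cells from ears of mice with a constitutive Bmal1 -/- genotype. The study's methods describe the C57BL/6 mice as adult females, and their wording does not make clear whether this covers the KO mice. Senescent cells had received 20 Gy of X-rays and control cells a sham exposure. By the study's methods, irradiated cells were then kept in culture for weeks before use, and no such period is given for control cells. Every culture, controls included, was kept at 3% oxygen, treated with 100 nM dexamethasone for 2 h to set the clock in phase, and collected 12 h later, so each value is 1 time point of the clock. The labels do not tie libraries to separate animals or cultures, so p-values measure only the spread between these libraries, which may be technical.

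Libraries held 23923030 to 31736083 counts. The targeted gene, listed as Arntl, averaged 31.5 CPM in WTC, 36.1 CPM in WTS, 13.2 CPM in KOC and 26.6 CPM in KOS libraries, with every KO library below every WT library. Counts over the whole gene thus remained in KO cells and do not by themselves show the knockout. They rose with senescence there (log2 fold change of 1.02). The log2 difference of KO from WT was -1.26 in control and -0.44 in senescent cells. A CPM value is the number of counts per 1000000 counts, with library totals scaled by the TMM method. The 10 fibroblast markers were all over 1 CPM in each group. Their summed level was 58600 to 62700 CPM in WTC, 46000 to 48200 in WTS, 59100 to 71900 in KOC and 38700 to 46400 in KOS libraries. Fn1 gave most of this sum, with means of 39900 CPM in WTC, 36800 in WTS, 41100 in KOC and 31800 in KOS cells. Single fibroblast markers went different ways, since with senescence in WT cells Dcn rose (log2 difference of 3.37) while Col1a1 fell (-2.06). The summed level of 8 chondrocyte markers, of which Col2a1 and Acan encode cartilage matrix, was 8790 to 10900 CPM in WTC, 2740 to 3180 in WTS, 5990 to 8310 in KOC and 915 to 1120 in KOS libraries. These chondrocyte sums did not overlap between control and senescent libraries of a genotype, nor between KO and WT libraries of a treatment, control cells included. The 8 markers did not move alike. In control cells only Col2a1 and Cnmd passed the test described below between KO and WT (log2 differences of -0.71 and -0.81). Acan (0.02) and Sox9 (0.11) were among those that did not. With senescence in WT cells Comp rose (0.59) while the others fell. Several receptors below also differed between some of these groups, and the part of the chondrocyte markers in the results was not tested. Macrophage markers summed to 9.19 to 16.7 CPM, endothelial markers to 2.35 to 8.67 and T cell markers to 0.0451 to 0.439 over all libraries. Keratinocyte markers summed to 10.2 to 14.7 CPM in WTC, 18.6 to 19.8 in WTS, 11.5 to 12.6 in KOC and 12.5 to 13.3 in KOS libraries. The WTS libraries thus stood highest, and the part of these markers was not tested either. In bulk RNA, fewer cells of a type and less RNA per cell cannot be told apart.

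Promoter sequence is shown for 2 receptors that moved in opposite directions in WT senescent cells, because the series asks about BMAL1 and AP-1, factors that bind short DNA words. RefSeq promoter windows (GRCm38.p6, from 250 bases before to 50 bases after the start of transcription) were at hand for 6 of the 10 genes, namely Eda2r, Fas, Tnfrsf12a, Tnfrsf1a, Tnfrsf1b and Tnfrsf23. Each was searched on both strands for the E-box CACGTG, the word bound by BMAL1 with CLOCK, and for the AP-1 words TGACTCA and TGAGTCA, which are reverse complements of each other and do not overlap the E-box. The 250 bases before the start are printed 5′ to 3′ on the strand of the gene, with matches in capitals, for Fas at chr19:34290409-34290658 (plus strand) and for Tnfrsf23 at chr7:143685876-143686125 (minus strand).
Fas: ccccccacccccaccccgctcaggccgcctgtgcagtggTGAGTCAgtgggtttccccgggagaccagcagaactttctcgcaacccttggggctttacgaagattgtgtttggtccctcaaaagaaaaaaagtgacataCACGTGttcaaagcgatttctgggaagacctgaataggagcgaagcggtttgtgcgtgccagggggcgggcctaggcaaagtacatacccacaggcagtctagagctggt
Tnfrsf23: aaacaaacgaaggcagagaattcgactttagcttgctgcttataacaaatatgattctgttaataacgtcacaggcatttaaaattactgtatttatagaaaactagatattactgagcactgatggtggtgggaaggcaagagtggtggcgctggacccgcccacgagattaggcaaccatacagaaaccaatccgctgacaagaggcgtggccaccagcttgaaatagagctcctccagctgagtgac

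The Fas window held an AP-1 word at -211 to -205 and an E-box at -110 to -105 from the start. Tnfrsf23 held neither word in its window. The Eda2r window held an E-box at 44 to 49 after the start, and the other 3 windows had no match to either. With senescence in WT cells Eda2r rose more than Fas (log2 fold changes of 1.65 and 1.57). Of the other 3, Tnfrsf1b rose (0.54), Tnfrsf1a fell (-0.22) and Tnfrsf12a did not pass the test (-0.07). Whether the words go with the changes was not tested. Among all 32851 RefSeq windows of the same length, 5.2% held an AP-1 word, 7.15% an E-box and 0.362% both. A match describes these letters only and says nothing of binding in these cells.

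With senescence in WT cells, transcripts of Fas, the secreted decoy Tnfrsf11b and Eda2r rose about 3-fold, while those of the decoy Tnfrsf23 fell 1.66-fold. Of the 10 receptors, 6 were higher in WTS than in WTC cells, 2 were lower and 2 did not pass the test (adjusted p under 0.05 in edgeR's quasi-likelihood test, with the Benjamini-Hochberg adjustment over all genes). Over all genes tested, 29.2% were higher and 27% lower. The 3 receptors over a log2 fold change of 1 were Fas, Tnfrsf11b and Eda2r, beside 11.6% of all genes. The median log2 fold change of the receptors was 0.34, and that of all genes was 0.02.

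In KO cells Tnfrsf11b, Eda2r, Fas and Tnfrsf26 rose at least 2-fold with senescence, and 8 receptors were higher, 1 (Tnfrsf1a) was lower and 1 (Tnfrsf23) did not pass, where 28.5% of all genes were higher and 28.6% lower. Tnfrsf26 joined Fas, Tnfrsf11b and Eda2r past a log2 fold change of 1, as did 11.2% of all genes. The value of Tnfrsf26 was under 1 when KOC replicate 2 (0.89), KOC replicate 3 (0.97) or KOS replicate 3 (0.97) was left out, and that of Fas without KOS replicate 2 (0.98). The receptors' median was 0.90, against 0 over all genes.

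**Figure D1:**
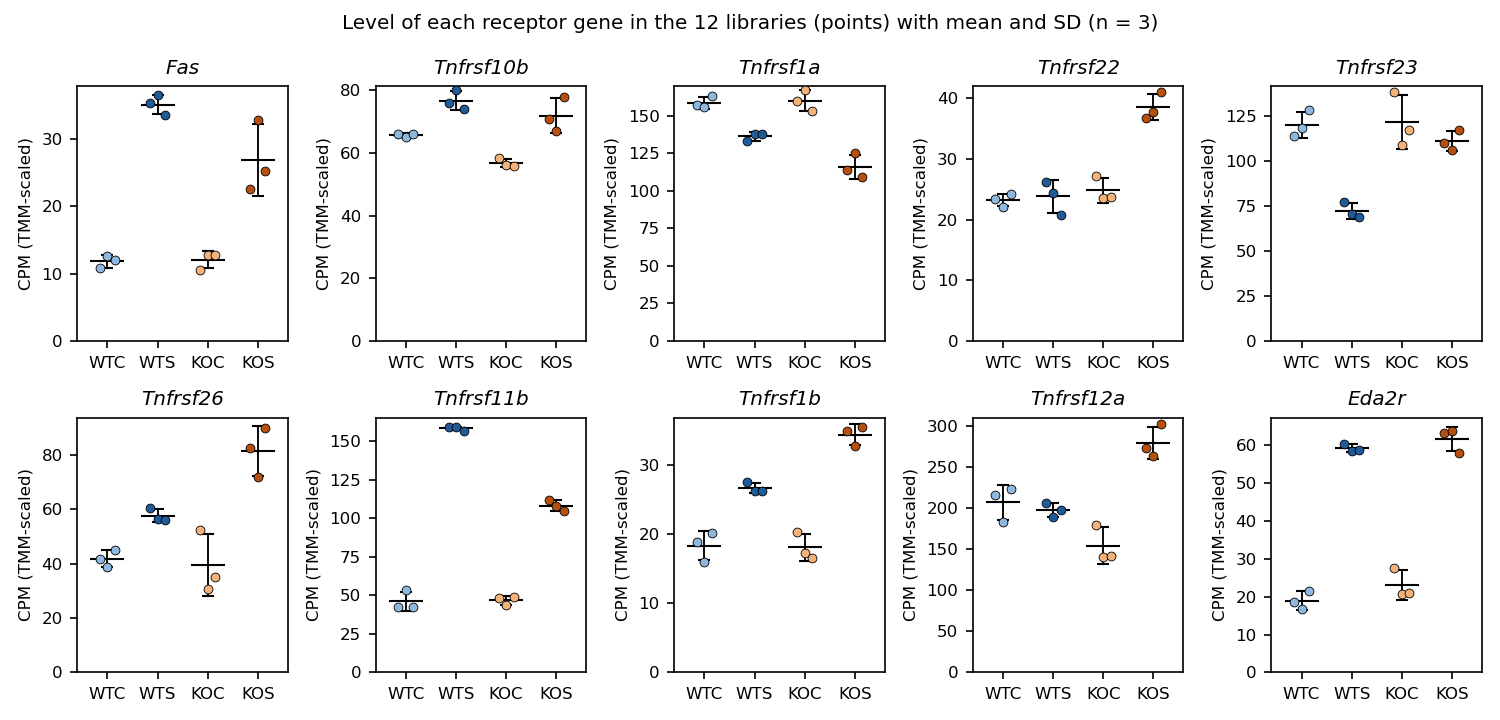
Level in CPM on TMM-scaled totals (vertical axis, from 0) of each of the 10 receptor genes in the 4 groups (horizontal axis: WTC, WTS, KOC and KOS), with 1 point per library and the mean and SD of 3 libraries in black. Fas, Tnfrsf11b and Eda2r stood higher in every senescent library than in every control library, and Tnfrsf23 stood at 68.6 to 77.4 CPM in the 3 WTS libraries and at 106 to 138 CPM in the other 9.

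The question of the genotype comparison is whether the change with senescence differed between KO and WT cells. It was tested as the interaction, the KO log2 fold change less the WT one. Positive values were found for 4 receptors (Tnfrsf12a, Tnfrsf23, Tnfrsf22 and Tnfrsf1b) and negative values for 2 (Tnfrsf11b and Tnfrsf1a), beside 9.24% and 11.7% of all genes, and the other 4 (Fas, Tnfrsf10b, Tnfrsf26 and Eda2r) did not pass. No receptor reached an interaction over 1 in size, as 3.66% of all genes did while passing the test. The 2 count tables hold 1 genotype each, so that a difference of handling between tables and a difference of genotype cannot be told apart, although a shift common to all libraries of 1 table cancels in the interaction.

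**Figure D2:**
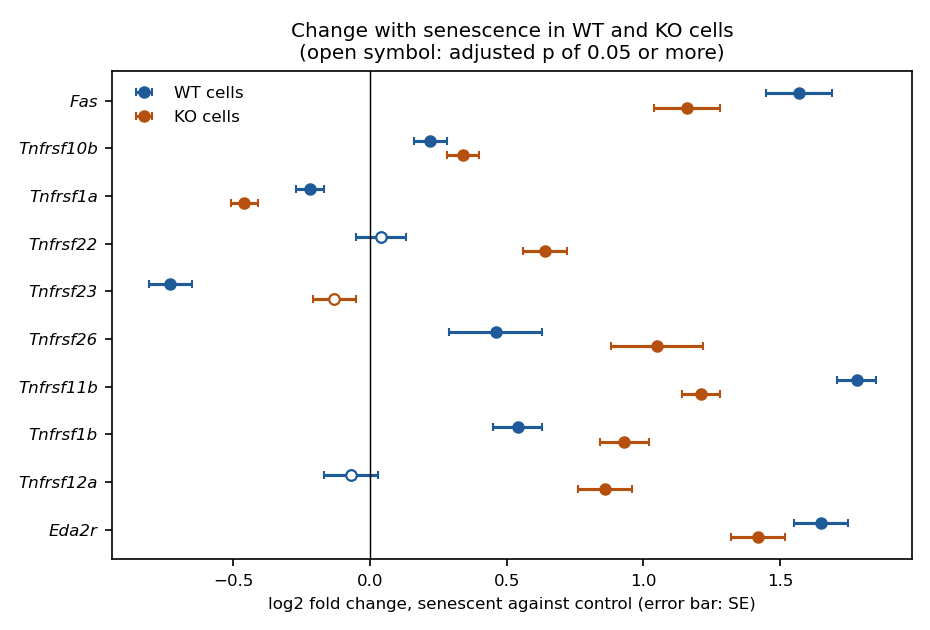
Log2 fold change of senescent against control cells (horizontal axis, with the SE as error bar) for each receptor (vertical axis) in WT cells (blue) and KO cells (orange), with open symbols for values that did not pass the test. Tnfrsf22 and Tnfrsf12a lay near 0 in WT cells (0.04 and -0.07) and at 0.64 and 0.86 in KO cells, and Tnfrsf23 lay at -0.73 in WT and -0.13 in KO cells.

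Among the death receptors, Fas (ENSMUSG00000024778, GRCm38 chr19:34290666-34327772, plus strand), the receptor of FASL, showed the largest rise. Fas was at 10.8, 12.6 and 12.1 CPM in WTC replicates 1 to 3, 35.3, 36.5 and 33.6 CPM in WTS, 10.6, 12.8 and 12.8 CPM in KOC and 22.6, 32.9 and 25.2 CPM in KOS cells. Every senescent library lay above every control library, and the 3 KOS libraries lay below the 3 WTS libraries. Its log2 fold change was 1.57 ± 0.12 (SE) in WT cells (2.97-fold, adjusted p = 1.7e-09) and 1.16 ± 0.12 in KO cells (2.23-fold, adjusted p = 1.1e-07). The interaction of Fas, -0.42 ± 0.17, did not pass (adjusted p = 0.0869), while KOS cells were lower than WTS cells, with a log2 difference of -0.39 ± 0.11 (adjusted p = 0.0148). That difference rested on few libraries, since the adjusted p was 0.0645 with WTS replicate 2 left out, 0.0765 with KOS replicate 1 and 0.0711 with KOS replicate 3. The interaction passed with KOC replicate 1 left out (-0.50, adjusted p = 0.0362) or with KOS replicate 2 left out (-0.59, adjusted p = 0.00418).

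Tnfrsf10b (ENSMUSG00000022074, chr14:69767472-69784411, plus strand), the mouse death receptor for TRAIL, moved much less. Its libraries measured 66.2, 65.1 and 66.2 CPM in WTC, 76, 80.2 and 74.2 CPM in WTS, 58.4, 56.3 and 55.8 CPM in KOC and 70.9, 67 and 77.9 CPM in KOS cells. Senescent and control libraries did not overlap within either genotype, and KOC libraries were the lowest of all. The log2 fold change with senescence was 0.22 ± 0.06 in WT cells (adjusted p = 0.00247) and 0.34 ± 0.06 in KO cells (adjusted p = 3.63e-05). Neither the interaction of 0.12 ± 0.08 (adjusted p = 0.34) nor the log2 difference of KOS from WTS cells, -0.09 ± 0.06 (adjusted p = 0.259), passed. KOC cells were below WTC cells, with a log2 difference of -0.21 ± 0.06 (adjusted p = 0.0192), a difference that missed the threshold in the fits without WTC replicate 1 (0.0685), KOC replicate 2 (0.0786) or KOC replicate 3 (0.0876).

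Tnfrsf1a (ENSMUSG00000030341, chr6:125349362-125362484, plus strand), TNFR1, the main death domain receptor of TNF, was the only death receptor of the 3 that fell. Tnfrsf1a stood at 157, 156 and 163 CPM in WTC, 133, 138 and 138 CPM in WTS, 160, 167 and 153 CPM in KOC and 114, 125 and 109 CPM in KOS cells. Control libraries of both genotypes overlapped, WTS libraries lay below them and KOS libraries below WTS. Its log2 fold change was -0.22 ± 0.05 in WT cells (adjusted p = 0.00193) and -0.46 ± 0.05 in KO cells (adjusted p = 2.77e-07). The difference between these, -0.25 ± 0.08, passed (adjusted p = 0.0259). It no longer did so without WTC replicate 1 (0.0614), WTS replicate 2 (0.0659) or 3 (0.0652), KOC replicate 2 (0.0839), or KOS replicate 1 (0.0532) or 3 (0.0662). With library totals used without TMM scaling, the WT change of Tnfrsf1a was -0.05 and did not pass (adjusted p = 0.452).

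The genes Tnfrsf26, Tnfrsf22 and Tnfrsf23 lie side by side on the minus strand of mouse chromosome 7 and, in that order, moved by different amounts. Tnfrsf22 and Tnfrsf23 encode decoy receptors for TRAIL without a death domain, and Tnfrsf26 is their neighbor in the same family. The cluster is 30.3 Mb from Arntl on the same chromosome. Relative to WTS, all 3 genes had higher means in KOS cells, and none passed the test between KOC and WTC cells.

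Tnfrsf22 (ENSMUSG00000010751, chr7:143634806-143649661) rose with senescence in KO cells. Tnfrsf22 was at 23.4, 22.1 and 24.2 CPM in WTC, 26.2, 24.4 and 20.8 CPM in WTS, 27.2, 23.5 and 23.7 CPM in KOC and 36.8, 37.8 and 41 CPM in KOS cells. The 3 KOS libraries were above the other 9, which overlapped each other. The log2 fold change was 0.04 ± 0.09 in WT cells (adjusted p = 0.73) and 0.64 ± 0.08 in KO cells (adjusted p = 1.37e-06), with an interaction of 0.60 ± 0.12 (adjusted p = 0.00143). Without TMM scaling the WT value was 0.21 and passed (adjusted p = 0.0451).

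Tnfrsf23 (ENSMUSG00000037613, chr7:143665809-143685872), the most abundant of the cluster, fell with senescence in WT cells. It was counted at 114, 118 and 128 CPM in WTC, 77.4, 70.5 and 68.6 CPM in WTS, 138, 109 and 117 CPM in KOC and 110, 106 and 117 CPM in KOS cells. The WTS libraries stood alone below the rest. WT cells had a log2 fold change of -0.73 ± 0.08 (adjusted p = 2.01e-07) and KO cells one of -0.13 ± 0.08 (adjusted p = 0.171), and the interaction was 0.61 ± 0.11 (adjusted p = 0.00077). Without KOC replicate 2 the KO value was -0.20 and passed (adjusted p = 0.0317).

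Tnfrsf26 (ENSMUSG00000045362, chr7:143607659-143628722) rose in both genotypes. Tnfrsf26 measured 41.8, 38.7 and 44.8 CPM in WTC, 60.3, 56.4 and 56 CPM in WTS, 52.2, 30.8 and 35 CPM in KOC and 82.5, 71.7 and 89.9 CPM in KOS cells. KOC libraries were the most scattered, with replicate 1 far above the others, and KOS libraries were the highest. Its log2 fold change was 1.05 ± 0.17 in KO cells (2.07-fold, adjusted p = 0.000526) and 0.46 ± 0.17 in WT cells (adjusted p = 0.0457). The WT call was fragile, for it was lost on leaving out any 1 of the 6 WT libraries (adjusted p = 0.103, 0.141 and 0.0708 without WTC replicates 1 to 3, and 0.113, 0.0853 and 0.0808 without WTS replicates 1 to 3). It was also lost without KOC replicate 3 (0.0542), KOS replicate 1 (0.0612) or KOS replicate 3 (0.0556). The interaction, 0.59 ± 0.24, did not pass (adjusted p = 0.13), and became 0.84 (adjusted p = 2.63e-05) without KOC replicate 1. The higher level in KOS than in WTS cells, 0.50 ± 0.17, missed the threshold as well (adjusted p = 0.0608) and passed without KOC replicate 1 (0.50, adjusted p = 3.2e-05) or KOC replicate 2 (0.50, adjusted p = 0.0192). Without KOC replicate 1, the log2 difference of KOC from WTC was -0.34 (adjusted p = 0.0131).

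Counts of this cluster carry a mapping limit. Of the 50-base words in annotated transcripts of Tnfrsf22, 27.4% also occurred in transcripts of other genes, 719 of them in Tnfrsf23, and the share was 19.3% for Tnfrsf23 and 1.89% for Tnfrsf26. At 150 bases, the length of a read, the shares were 9.86%, 4.52% and 0. Exons of Tnfrsf23 and Tnfrsf26 overlap those of E230032D23Rik, an antisense gene on the plus strand, and the sources used here do not state whether counting used strand. E230032D23Rik averaged 0.787 CPM over the 12 libraries. Apart from Tnfrsf10b, for which 6.21% of 50-base words and no 150-base word were shared, the other receptors had no shared words.

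Neighbors within 100 kb did not follow 1 pattern. Nap1l4, which encodes a histone chaperone, had log2 fold changes of -0.25 in WT and -0.20 in KO cells, with an interaction of 0.05 (adjusted p = 0.706). Cars, the cysteinyl-tRNA synthetase gene next to Tnfrsf26, fell in both, with log2 fold changes of -0.88 in WT and -0.44 in KO cells, and its interaction of 0.43 passed (adjusted p = 0.00146). On the Tnfrsf23 side, Osbpl5, an oxysterol-binding protein gene, rose by 0.13 and 0.22 (interaction 0.09, adjusted p = 0.445), and Mrgpre, at a mean of 3.82 CPM, rose by 1.26 and 1.16 (interaction -0.10, adjusted p = 0.856). The antisense gene E230032D23Rik was at -0.13 in WT and 1.16 in KO cells (interaction 1.29, adjusted p = 0.0696).

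**Figure D3:**
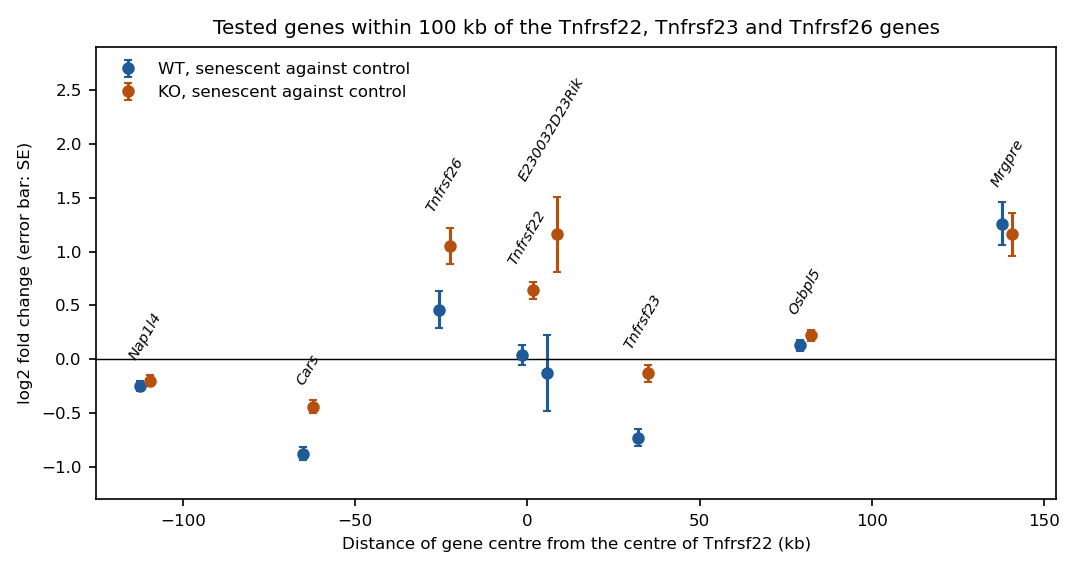
Log2 fold change with senescence (vertical axis, SE as error bar) of the 8 tested genes in and within 100 kb of the receptor cluster, by the distance of each gene's center from that of Tnfrsf22 in kb (horizontal axis), in WT (blue) and KO cells (orange). KO values lay above WT values at Cars, Tnfrsf26, Tnfrsf22, E230032D23Rik and Tnfrsf23, of which Cars, Tnfrsf22 and Tnfrsf23 passed the interaction test, and the values of Nap1l4, Osbpl5 and Mrgpre were close together.

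Tnfrsf11b (ENSMUSG00000063727, chr15:54250619-54278484, minus strand) encodes osteoprotegerin, a secreted decoy that binds RANKL and TRAIL. It had the largest rise of the 10 in WT cells. Tnfrsf11b was at 42.6, 53.3 and 42.7 CPM in WTC, 159, 159 and 157 CPM in WTS, 48.1, 43.6 and 49.1 CPM in KOC and 112, 108 and 105 CPM in KOS cells. The control libraries of both genotypes overlapped, and KOS libraries lay between controls and WTS. Senescence raised it by a log2 value of 1.78 ± 0.07 in WT cells (3.43-fold, adjusted p = 1.93e-14) and 1.21 ± 0.07 in KO cells (2.31-fold, adjusted p = 6.69e-12). The rise was smaller in KO cells, with an interaction of -0.57 ± 0.10 (adjusted p = 0.00046), and the log2 difference of KOS from WTS cells was -0.55 ± 0.07 (adjusted p = 5.41e-06).

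The transcript of its ligand went the other way. Tnfsf11, which encodes RANKL, was at 42.4, 41.5 and 40.3 CPM in WTC, 18.7, 19.7 and 16.8 CPM in WTS, 43.2, 42.7 and 41.2 CPM in KOC and 10, 11.4 and 9.65 CPM in KOS cells. It fell in both, with log2 fold changes of -1.17 in WT cells (adjusted p = 2.65e-11) and -2.03 in KO cells (adjusted p = 7.62e-15), and its interaction was -0.86 (adjusted p = 2.45e-05). The ratio of Tnfrsf11b to Tnfsf11, each in CPM per kb of exon, was 0.797, 1.02 and 0.841 in WTC, 6.77, 6.38 and 7.42 in WTS, 0.885, 0.81 and 0.946 in KOC and 8.86, 7.47 and 8.67 in KOS cells. Senescent cells thus had a ratio 7.77-fold higher in WT and 9.46-fold higher in KO cells, and KOS exceeded WTS 1.21-fold. Libraries did not overlap in any of these contrasts, though the lowest KOS value (7.47) was close to the highest WTS value (7.42). A 2-sided exact permutation test gave p = 0.1 for each of these contrasts, the smallest it can give with 3 against 3 libraries. This ratio was chosen after its values were seen. Where libraries do not overlap the test can give no other p, so it decides nothing here. The chondrocyte marker sum also differed between senescent and control libraries and between KOS and WTS libraries. It differed between KOC and WTC libraries too. Of its genes, only Col2a1 (log2 difference of -0.71) and Cnmd (-0.81) passed there, while the others did not, with Acan at 0.02. The part of these markers was not tested.

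**Figure D4:**
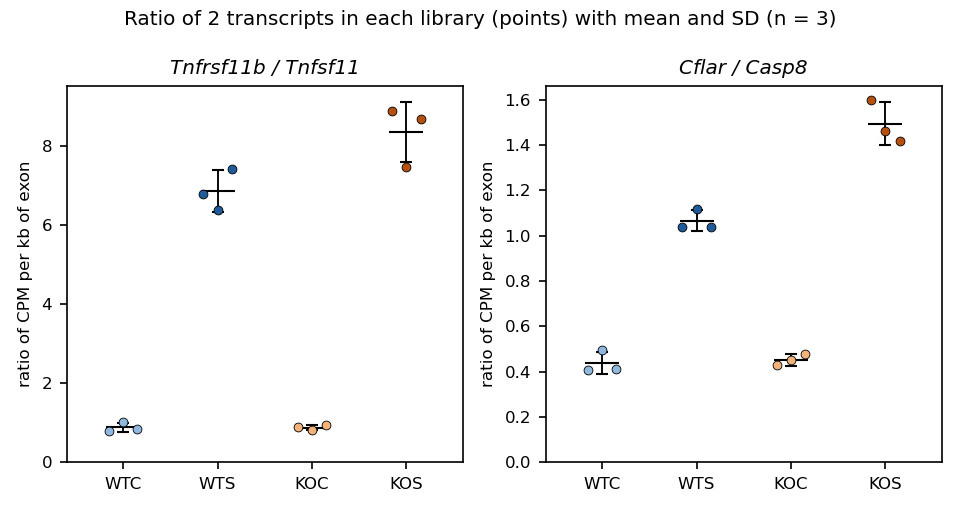
Ratio of 2 transcripts, each in CPM per kb of exon (vertical axis, from 0), in the 4 groups (horizontal axis), with 1 point per library and the mean and SD of 3 libraries in black, for Tnfrsf11b to Tnfsf11 (left) and Cflar to Casp8 (right). Both ratios overlapped between WTC and KOC libraries and were higher in every senescent library, with KOS above WTS.

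The remaining receptors, Tnfrsf12a, Tnfrsf1b and Eda2r, have no death domain and bind TRAF adaptors. Tnfrsf12a (ENSMUSG00000023905, chr17:23675445-23677468, minus strand) encodes FN14, the receptor of TWEAK, and had the largest interaction of the 10. Tnfrsf12a was at 216, 183 and 223 CPM in WTC, 206, 189 and 198 CPM in WTS, 180, 141 and 142 CPM in KOC and 273, 264 and 302 CPM in KOS cells. WT libraries overlapped whether irradiated or not, KOC libraries were the lowest and KOS libraries the highest. The log2 fold change was -0.07 ± 0.10 in WT cells (adjusted p = 0.567) and 0.86 ± 0.10 in KO cells (1.81-fold, adjusted p = 3.89e-06), an interaction of 0.93 ± 0.14 (adjusted p = 0.000444). KOC cells were below WTC cells, with a log2 difference of -0.43 ± 0.10 (adjusted p = 0.00999), and KOS cells were above WTS cells, with one of 0.50 ± 0.10 (adjusted p = 0.00186).

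Tnfrsf1b (ENSMUSG00000028599, chr4:145213463-145246870, minus strand) encodes TNFR2, the TNF receptor without a death domain, and its transcript rose while that of Tnfrsf1a fell. Tnfrsf1b was counted at 18.8, 16 and 20.1 CPM in WTC, 27.5, 26.2 and 26.2 CPM in WTS, 20.3, 17.3 and 16.6 CPM in KOC and 34.9, 32.7 and 35.5 CPM in KOS cells. Controls of both genotypes overlapped, and KOS libraries were above all WTS libraries. It rose by 0.54 ± 0.09 in WT cells (adjusted p = 2.08e-05) and by 0.93 ± 0.09 in KO cells (adjusted p = 9.7e-09). The difference, 0.38 ± 0.12, passed (adjusted p = 0.0326) but was lost on leaving out any 1 of 8 libraries. These were WTC replicates 1 (0.0786) and 3 (0.0935), WTS replicates 2 (0.0788) and 3 (0.0735), KOC replicates 2 (0.0892) and 3 (0.102), and KOS replicates 1 (0.0539) and 3 (0.0694).

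Eda2r (ENSMUSG00000034457, chrX:97333840-97377216, minus strand), the receptor of the ectodysplasin form EDA-A2, rose in both genotypes. Eda2r stood at 18.5, 16.8 and 21.6 CPM in WTC, 60.4, 58.6 and 58.9 CPM in WTS, 27.7, 20.6 and 21 CPM in KOC and 63.4, 63.8 and 58 CPM in KOS cells. Senescent libraries of both genotypes overlapped, far above all controls. The log2 fold change was 1.65 ± 0.10 in WT (3.13-fold, adjusted p = 1.59e-10) and 1.42 ± 0.10 in KO cells (2.68-fold, adjusted p = 7.94e-10), and the difference of -0.23 ± 0.14 did not pass (adjusted p = 0.281). In control cells Eda2r was higher in KO than in WT by 0.28 ± 0.10 without passing (adjusted p = 0.0878), and it passed without WTC replicate 3 (0.39, adjusted p = 0.0192) or KOC replicate 2 (0.37, adjusted p = 0.0458).

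KO and WT cells were also compared directly. In control cells 2 receptors, Tnfrsf10b and Tnfrsf12a, were lower in KO and none was higher, beside 4.96% and 8.07% of all genes, and the medians of the receptors and of all genes were both 0.01. Apart from Eda2r, the log2 differences of the other 7 receptors that did not pass lay between -0.09 (Tnfrsf26, adjusted p = 0.818) and 0.10 (Tnfrsf22, adjusted p = 0.536), with Fas at 0.03, Tnfrsf11b at 0.02, Tnfrsf1a and Tnfrsf23 at 0.01 and Tnfrsf1b at -0.02. In senescent cells 4 receptors (Tnfrsf22, Tnfrsf23, Tnfrsf12a and Tnfrsf1b) were higher in KOS than in WTS and 3 (Tnfrsf11b, Fas and Tnfrsf1a) were lower, beside 11.9% and 11.8% of all genes. Of those not given above, the log2 differences of KOS from WTS were 0.69 for Tnfrsf22 (adjusted p = 3.92e-06), 0.62 for Tnfrsf23 (adjusted p = 1.22e-05), 0.36 for Tnfrsf1b (adjusted p = 0.00299) and -0.24 for Tnfrsf1a (adjusted p = 0.003), and that of Eda2r, 0.06, did not pass (adjusted p = 0.701). The share of all calls that were higher in KOS than in WTS was 50.4%, and 40.1% when totals were not scaled by TMM. For senescence itself that share was 52% in WT and 49.9% in KO cells, against 68.5% and 64.9% without the scaling, which moves the median of all genes up by 0.17 in WT and 0.15 in KO cells. Without the scaling the WT value of Tnfrsf12a was 0.10 and the KO value of Tnfrsf23 was 0.03, neither past the test, so the sign of these small changes depends on the scaling.

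Levels between genes were compared in CPM per kb of exon. Tnfrsf12a was the most abundant receptor transcript in all 4 groups, at 107 ± 11.1 (SD, n = 3) in WTC, 102 ± 4.55 in WTS, 79.8 ± 11.5 in KOC and 145 ± 10.3 CPM per kb in KOS cells. In WTC cells it was followed by Tnfrsf1a (61.2 ± 1.45), Tnfrsf23 (30.3 ± 1.89) and Tnfrsf11b (16.4 ± 2.19), whose libraries did not overlap. Tnfrsf26 (13 ± 0.936) and Tnfrsf10b (12.1 ± 0.116) overlapped, as did Fas (5.73 ± 0.461) with Tnfrsf22 (5.51 ± 0.25) and Tnfrsf22 with Tnfrsf1b (4.79 ± 0.542), and Eda2r was lowest at 3.22 ± 0.411. By their means, KOC cells had the same first 6 in the same order, but Tnfrsf11b (16.7 ± 1.04) overlapped with Tnfrsf26 (12.2 ± 3.53) there, and Tnfrsf26 with Tnfrsf10b (10.4 ± 0.247). In WTS cells Tnfrsf11b (56.2 ± 0.353) passed Tnfrsf1a (52.7 ± 1.11), while Tnfrsf23 (18.2 ± 1.17), Tnfrsf26 (17.9 ± 0.731) and Fas (17 ± 0.722) came to overlapping levels and Tnfrsf22 (5.64 ± 0.65) was lowest. In KOS cells Tnfrsf1a (44.8 ± 3.09) stayed above Tnfrsf11b (38.4 ± 1.18), Tnfrsf23 (28 ± 1.49) overlapped with Tnfrsf26 (25.3 ± 2.84), and the lowest pair, Tnfrsf22 (9.14 ± 0.513) and Tnfrsf1b (8.99 ± 0.385), overlapped too.

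The wider pathway was read from a list of 76 genes, of which 66 could be tested. In WT cells 15 were higher with senescence and 22 lower, beside the 29.2% and 27% of all genes given above. In KO cells 17 were higher and 22 lower, beside 28.5% and 28.6%. The interaction passed for 5 genes upward and 8 downward, beside 9.24% and 11.7%. The median log2 fold change of the list was -0.01 in WT and -0.08 in KO cells, against 0.02 and 0 over all genes.

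Transcripts of the death receptor ligands were at few counts. Tnf had 0 to 2 counts per library and Fasl 0 to 4, and neither could be tested. Tnfsf10, which encodes TRAIL, had 3 to 14 counts per library, with log2 fold changes of 1.07 in WT (adjusted p = 0.135) and -1.24 in KO cells (adjusted p = 0.0662). Of the 10 testable ligands, 5 were higher and 2 lower with senescence in each genotype, where 29.2% and 27% of all genes were so in WT and 28.5% and 28.6% in KO cells. The 2 that fell in both were Tnfsf11 and Tnfsf9, which encodes the 4-1BB ligand and changed by -1.27 in WT and -1.41 in KO cells. Tnfsf12, the TWEAK gene, rose by 0.70 in WT (adjusted p = 9.38e-05) and 0.71 in KO cells (adjusted p = 6.95e-05). The ligand gene of Eda2r, Eda, rose by 0.91 in WT (adjusted p = 2.32e-05) and 0.42 in KO cells (adjusted p = 0.0191).

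Among the other receptors, Ngfr, the low-affinity neurotrophin receptor with a death domain, rose by 2.34 in WT (adjusted p = 1.73e-07) and by 3.57 in KO cells (adjusted p = 8.25e-10), from means of 0.692 and 0.377 CPM. The Ngfr interaction, 1.23, had an adjusted p of 0.0382 and lost the call in 8 of the 12 fits with 1 library left out (all but those without WTC replicate 3, WTS replicate 3, KOC replicate 3 or KOS replicate 2), where the highest was 0.122. Tnfrsf25, the death domain receptor DR3, fell, with log2 fold changes of -0.69 in WT (adjusted p = 0.000247) and -1.77 in KO cells (adjusted p = 1.02e-09), with an interaction of -1.08 (adjusted p = 0.00073). Of the 17 tested receptors that are not among the 10, 3 were higher and 4 lower in WT (29.2% and 27% of all genes), and 2 were higher and 4 lower in KO cells (28.5% and 28.6%).

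Downstream of the receptors, 13 adaptors, caspases and regulators were measured, of which 3 were higher and 7 lower in WT (29.2% and 27% of all genes) and 2 were higher and 8 lower in KO cells (28.5% and 28.6%). The median of the 13 log2 fold changes was -0.31 (WT) and -0.35 (KO), and that of all genes 0.02 and 0. Cflar, whose product cFLIP blocks caspase-8 activation, was at 90, 96.8 and 95.7 CPM in WTC, 150, 152 and 149 CPM in WTS, 96.2, 93.7 and 97.9 CPM in KOC and 244, 218 and 241 CPM in KOS cells. Control libraries overlapped, and KOS libraries were above WTS. It rose by 0.68 in WT (adjusted p = 6.6e-10) and 1.29 in KO cells (adjusted p = 1.8e-14), with an interaction of 0.61 (adjusted p = 1.68e-05). Casp8 fell, with log2 fold changes of -0.62 in WT (adjusted p = 2.33e-07) and -0.44 in KO cells (adjusted p = 2.26e-05), and its interaction of 0.18 did not pass (adjusted p = 0.219). The ratio of Cflar to Casp8 per kb of exon was 0.437 ± 0.049 (SD, n = 3) in WTC, 1.07 ± 0.0441 in WTS, 0.452 ± 0.0246 in KOC and 1.49 ± 0.0961 in KOS cells. As before, the exact permutation test on each of the 3 contrasts gave the smallest possible p of 0.1. The ratio was chosen after its values were seen, without overlap between the groups, so the test decides nothing here either.

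Ripk3, the kinase of necroptosis, fell too, with log2 fold changes of -0.87 in WT (adjusted p = 4.29e-11) and -0.75 in KO cells (adjusted p = 4.12e-10). Bid, which carries the caspase-8 signal to mitochondria, rose by 0.37 in WT (adjusted p = 0.00402) and by 0.46 in KO cells (adjusted p = 0.000466). Cradd, an adaptor with a death domain, rose by 1.25 in WT cells (adjusted p = 1.6e-05), and its interaction was -1.17 (adjusted p = 0.0049).

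Of 23 TRAFs, inhibitors of apoptosis and ubiquitin editors, 3 were higher and 7 lower in WT (29.2% and 27% of all genes) and 7 were higher and 6 lower in KO cells (28.5% and 28.6%). In KO cells both counts, and in WT cells that of lower genes, were near the share over all genes, and the medians were -0.02 in WT and -0.07 in KO cells. Map3k5, the stress kinase ASK1, was at -1.22 in WT (adjusted p = 2.09e-07) and -1.12 in KO cells (adjusted p = 8.02e-07). Xiap, an inhibitor of caspases, was at -0.38 in WT (adjusted p = 4.01e-06) and -0.52 in KO cells (adjusted p = 3.74e-08). Tnfaip3, the NF-kappaB target and feedback inhibitor A20, rose by 0.76 in KO cells (adjusted p = 0.00178) and was at 0.05 in WT cells (adjusted p = 0.828). Its interaction of 0.70 did not pass (adjusted p = 0.0576).

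Receptor shedding was covered by 3 genes. The protease genes Adam17 and Adam10, whose products cut TNF receptors and ligands from the membrane, fell in both genotypes, with log2 fold changes for Adam17 of -0.32 in WT (adjusted p = 0.000105) and -0.66 in KO cells (adjusted p = 4.73e-09), and for Adam10 of -0.44 in WT (adjusted p = 5.58e-07) and -0.46 in KO cells (adjusted p = 3.31e-07). Their inhibitor Timp3 rose by 0.99 in WT (adjusted p = 8.4e-05) and 0.68 in KO cells (adjusted p = 0.0011). Only Adam17 passed the interaction test, at -0.34 (adjusted p = 0.00594).

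**Figure D5:**
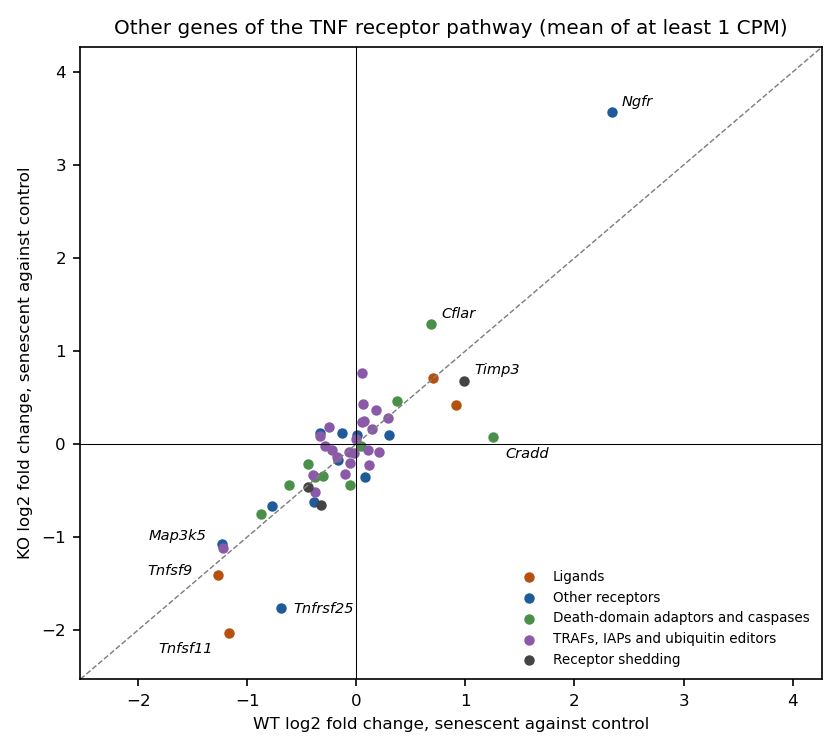
Log2 fold change with senescence in WT cells (horizontal axis) against KO cells (vertical axis) for genes of the pathway list with a mean of at least 1 CPM, colored by role, with equal change on the dashed line. Genes set aside as not reported here are not plotted. Ngfr (2.34 and 3.57) and Cflar (0.68 and 1.29) lay above the line, and Tnfsf11 (-1.17 and -2.03) and Tnfrsf25 (-0.69 and -1.77) below it.

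Genes with the most similar pattern to a receptor were found by Pearson's r of log2 CPM over the 12 libraries, a description that mainly reflects the differences between the 4 groups the points share. Nearest to Fas was Rtl8c (r = 0.992), to Eda2r Slc19a2 (0.994), to Tnfrsf11b Kcnk2 (0.990) and to Tnfrsf1b Cep170b (0.992). Nearest to Tnfrsf23 was Coro1c (0.989), to Tnfrsf22 Bnip2 (0.972), to Tnfrsf26 Snx9 (0.982) and to Tnfrsf12a Rrp12 (0.978). For the death receptors Tnfrsf1a and Tnfrsf10b they were Bcat2 (0.982) and Lgr6 (0.949). Among the 10 receptors, Fas and Tnfrsf11b were most alike (0.975), followed by Tnfrsf26 with Tnfrsf1b (0.961), and the 2 receptors of TNF, Tnfrsf1a and Tnfrsf1b, were opposed (-0.933).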

How the data were processed

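Poly(A) RNA of the 12 libraries was sequenced by the authors as paired reads on an Illumina HiSeq after NEBNext Ultra II library preparation. The submitters' processing notes list bcl2fastq 2.17, Trimmomatic 0.36, STAR 2.5.2b and the GRCm38 genome, and the study's methods name featureCounts. The values deposited by the authors were raw counts per gene, 1 table per genotype, and the use of strand and the annotation release are not given in the sources used here. By the study's methods, reads without a unique place were not counted, so genes with shared sequence lose counts. Counts carry no molecular identifiers, so precision covers counting error and the spread between libraries only. A count of 3, the detection floor, equalled 0.101 to 0.135 CPM.

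Libraries were grouped by their labels. Symbols and exon lengths came from a GENCODE annotation of GRCm38, with 49056 of 49315 identifiers matched. The software was edgeR 4.0.16 under R 4.3.3. Genes were kept by filterByExpr, totals were scaled by TMM, and a robust quasi-likelihood model with 1 mean per group was fitted to all 12 libraries. The quasi-likelihood F-test was used for 5 comparisons (senescence in WT, senescence in KO, their interaction, and KO against WT in control and in senescent cells), with Benjamini-Hochberg adjustment over 17416 genes. A gene passed at an adjusted p under 0.05. The SE is the absolute log2 fold change over the square root of F. Scripts were tested on simulated data. Alternatives were DESeq2 1.42.0, its size factors, no filter on low counts, a fit that was not robust, only the groups compared, the replicate number as a block, a log2 fold change over 1, each library left out in turn and, added after seeing the data, plain library totals.

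All 10 receptors are named in every comparison. Of the pathway list, the rule takes up to 3 genes per role, comparison and direction that passed, with the largest change and a mean of at least 1 CPM, and the text gives some of these, plus Casp8 and Tnfsf10 for their roles. Genes that the rule gave but that are not reported here stay in the counts of the list and were not replaced. Also named are genes within 100 kb of the cluster and, per receptor, the gene of at least 5 CPM with the highest r (prior count 2). The members and lists were chosen with earlier results of these data known.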

Additional observations from a re-analysis of the deposited data

Results flagged for a closer look

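The change with senescence differed between KO and WT cells, by the interaction test, for 6 of the 10 receptors, 4 upward and 2 downward, where 9.24% and 11.7% of all genes tested differed upward and downward. The KO log2 fold change less the WT one was 0.93 for Tnfrsf12a, 0.61 for Tnfrsf23, 0.60 for Tnfrsf22, 0.38 for Tnfrsf1b, -0.25 for Tnfrsf1a and -0.57 for Tnfrsf11b. With 1 library left out in turn, the call of Tnfrsf1b was lost in 8 fits and that of Tnfrsf1a in 6.

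Among genes of the pathway list, it differed with values of 1.23 for Ngfr, 0.61 for Cflar, 0.40 for Traf3 and 0.37 for Tank. The call of Ngfr was lost in most of the fits with 1 library left out. Negative values were -0.86 for Tnfsf11, -1.08 for Tnfrsf25, -1.17 for Cradd, -0.38 for Casp6, -0.35 for Birc2, -0.30 for Sharpin, -0.22 for Tab2 and -0.34 for Adam17. Next to the receptor cluster, Cars differed by 0.43.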

How the results depend on the processing

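Directions and calls of Fas, Tnfrsf11b, Eda2r, Tnfrsf10b and Tnfrsf1b with senescence were the same in every alternative fit run. With a log2 fold change over 1 also required, the receptors counted were 3 higher and 0 lower in WT, 4 and 0 in KO, and 0 in either direction for the interaction, for KO against WT senescent cells and for receptors lower in KO control cells. On plain library totals, 1 receptor was lower in WT senescent cells (Tnfrsf23), and signs turned for Tnfrsf12a (0.10) and E230032D23Rik (0.03) in WT, Tnfrsf23 in KO (0.03) and, in control cells, Tnfrsf1a (-0.01), Tnfrsf23 (0) and Tnfrsf11b (0). Without a filter on low counts, 1 receptor, Eda2r (0.29, adjusted p = 0.00447), was higher in KO control cells.

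With each library left out in turn, receptors lower with senescence in KO numbered 1 to 2, those with a negative interaction 1 to 3, and those higher or lower in KO control cells 0 to 1 and 1 to 3. Genes called between genotypes in control cells, 2269 in all, numbered 1408 without WT Control replicate 1, 1443 without KO Control replicate 2 and 1492 without KO Control replicate 3. Ranges that crossed 0 were those of Tnfrsf22 (-0.04 to 0.12) and E230032D23Rik (-0.31 to 0.14) in WT, the interaction of Mrgpre (-0.41 to 0.07), and, between genotypes in control cells, Fas (-0.03 to 0.12), Tnfrsf1a (-0.02 to 0.04), Tnfrsf23 (-0.09 to 0.09), Tnfrsf26 (-0.34 to 0.07), Tnfrsf11b (-0.04 to 0.14) and Tnfrsf1b (-0.11 to 0.06).

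Same-numbered libraries deviated from their group means with correlations of -0.125 to 0.108. Libraries of different numbers were not compared in this way, so whether the numbers pair the libraries is not known. The fit with the replicate block gave interactions of 5 receptors upward and 3 downward, adding Tnfrsf26 (0.61, adjusted p = 0.0285) and Fas (-0.42, adjusted p = 0.0317), and 5 receptors higher in KO senescent cells, adding Tnfrsf26 (0.49, adjusted p = 0.0299). It lost the interaction of Ngfr (adjusted p = 0.0695), as did the fit without a filter (0.0555). The Tnfrsf26 call in WT cells was lost with DESeq2 size factors in edgeR (0.0506) and without the filter (0.116). The difference of Tnfrsf26 between senescent groups passed with DESeq2 (0.0215), with a fit that was not robust (0.00978) and with only the groups compared (0.000102), where that of Fas did not pass (0.0523). The interaction of Fas passed without the filter (0.0126), and that of Tnfrsf26 in a fit that was not robust (0.0366). The causes were not tested. With 3 libraries a group, the spread within a group rests on few values, and genes near 1 CPM, such as E230032D23Rik and Ngfr, on few counts.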
